A study of Sesbania grandiflora with 21 samples.

Results

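The combined treatment labelled DS+Y-L was compared with the group labelled ck in leaves of Sesbania grandiflora, a fast-growing legume tree. The 6 libraries, 3 of DS+Y-L and 3 of ck, were taken by their sample titles from the 21 libraries of the series. The titles name 7 groups of 3, whereas the submitters' design note mentions 4, and the titles were followed. The other 15 libraries belong to 5 further treated groups of 3, labelled DS+Y-S, Y-S, Y-L, DS-S and DS-L, and they served to estimate the spread and as a second comparison. Each library was made from leaf messenger RNA enriched on oligo(dT) beads. The labels give no genotype, plant age, dose or duration for any group and do not spell out DS, Y, L, S or ck. The series title speaks of drought combined with salt. The letter L has no partner among the ck labels, so the treatment and whatever L stands for cannot be told apart in this contrast. Whether replicates were taken from different plants is not stated, so the p-values below measure the spread between libraries, which may be technical.

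Drought and salt both lower the water available to a leaf. The hormone abscisic acid accumulates, stomata close, and leaf cells switch on genes for protective proteins and compatible solutes while genes for photosynthesis and growth are often turned down. Salt adds a load of sodium and chloride that must be excluded from the cytosol or stored in the vacuole. The assembled genes here carry Trinity identifiers with no name or description, so no gene could be assigned to any of these processes, and the leaf label could not be checked against leaf marker genes. In whole leaves, fewer cells of a type and less RNA per cell cannot be told apart either.

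The 3 DS+Y-L libraries held 17565731, 18873271 and 18305907 counts (replicates 1, 2 and 3), and the 3 ck libraries 18450395, 19002636 and 18403292. Several libraries stood apart from the others of their group. DS+Y-L replicate 3 lay nearer to ck, and to most libraries of the other treated groups, than to its own group mates. The main counts and fold changes are given with and without it. Whether it holds the treatment on its label could not be checked, since no named gene or other marker of the treatment is at hand. All 3 DS+Y-S libraries differed widely from each other, and DS+Y-S replicate 1 had at least 1 count on 36755 genes, against 47279 to 61454 in the other 20 libraries. They are in neither of the 2 groups compared but entered the estimate of the spread.

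DS+Y-L replicates 1 and 2 resembled each other more than either resembled any other library, while replicate 3 did not join them. Over the 38211 genes tested, the median absolute difference in log2 CPM (the count as a rate over the library's total, scaled between libraries by TMM) was 0.62 between replicates 1 and 2. It was 0.77 between replicates 1 and 3 and 0.78 between replicates 2 and 3. Replicate 3 differed by 0.59, 0.67 and 0.52 from ck replicates 1, 2 and 3. Replicate 1 differed by 0.92, 1.08 and 0.85 from the same libraries, and replicate 2 by 0.95, 0.94 and 0.77. The ck libraries differed from each other by 0.55 to 0.59, so replicate 3 was about as far from ck replicates 1 and 3 as the ck libraries were from one another. Of all 20 other libraries the nearest to replicate 3 was Y-L replicate 1, at 0.45, and its own group mates ranked 17 and 18. In limma voom the fitted weight of replicate 3 was 0.426, against 1.09 and 0.941 for replicates 1 and 2.

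**Figure D1:**
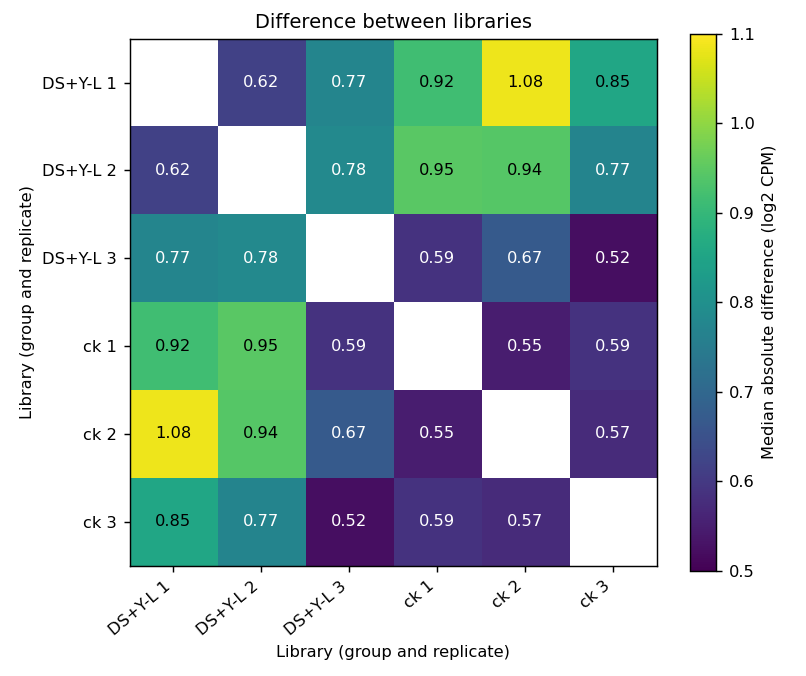
Median absolute difference in log2 CPM over the genes tested for each pair of the 3 DS+Y-L and 3 ck libraries, written in each cell and shown by colour. DS+Y-L replicate 3 differs from the ck libraries by 0.52 to 0.67, less than from its own group mates at 0.77 and 0.78.

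The distance of replicate 3 from its group was wide but not the widest of the series. In replicate 3, 12.3% of tested genes stood at least 4-fold away from the mean of replicates 1 and 2, with 2505 genes higher and 2213 lower. The same share was 7.12% for replicate 1 and 8.32% for replicate 2 against their own mates. Over the 18 libraries of the other groups, ck included, it ran from 1.13% to 31.9% with a median of 6.21%, and 3 of the 18 exceeded replicate 3, namely DS+Y-S replicates 1, 2 and 3 at 31.9%, 14.1% and 18.5%.

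Fewer genes were detected in DS+Y-L than in ck, by less than the spread between libraries could separate. At least 1 count was found on 49004, 54943 and 57142 genes in DS+Y-L replicates 1, 2 and 3, against 54120, 60733 and 61117 in ck. The means were 53696 ± 4210 in DS+Y-L and 58657 ± 3934 in ck (SD, n = 3 each; two-sided exact permutation p = 0.3, adjusted over 2 library measures 0.4). Replicate 1 had the lowest number, and the groups overlapped. The difference of -4960 genes between DS+Y-L and ck was -6683 with replicate 3 of DS+Y-L left out, -2614 with its replicate 1 left out and -7229 without ck replicate 1. The 100 most abundant genes of each library took 17.9%, 17.4% and 16.9% of counts in DS+Y-L and 25.0%, 16.7% and 19.7% in ck (two-sided exact permutation p = 0.4, adjusted 0.4, n = 3 each). The difference of -3.06 percentage points was -2.79 without DS+Y-L replicate 3, -0.785 without ck replicate 1 and -4.94 without ck replicate 2. With 3 libraries against 3 the smallest p this test allows is 0.1.

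DS+Y-L against ck called 26 genes, 19 higher and 7 lower, at an edgeR quasi-likelihood adjusted p under 0.05. That is 0.0680% of the 38211 genes tested, 0.0497% higher and 0.0183% lower. The log2 fold changes of the 19 ran from 1.64 to 10.34 with a median of 3.59, and those of the 7 from -5.00 to -1.83 with a median of -2.96. Adjusted p-values lay between 0.0133 and 0.0465. All 26 were called again when replicate 3 was left out of the fit. With the same genes tested, that fit called 1841 genes in all. It used the same ck libraries and the same replicates 1 and 2, so it is no independent check of the 26. The count of genes called was 0 without any 1 ck library. Dropping replicate 1 of DS+Y-L left 1 call and dropping its replicate 2 left 2. Dropping DS+Y-S replicate 1, which is in neither group, gave 45. It was also 0 in a fit to the 6 libraries alone, while DESeq2 called 2795 genes and limma voom 2946, so the number of genes called rests on the fit.

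TRINITY_DN26884_c0_g1 rose with the widest clear gap between the groups among called genes averaging at least 5 CPM. It stood at 113, 130.2 and 23.6 CPM in DS+Y-L replicates 1, 2 and 3, and at 1.14, 1.41 and 1.39 CPM in ck replicates 1, 2 and 3. Replicate 3 was the lowest of its group but still far above every ck library. The gene was chosen by that gap over all libraries of both groups, so the place of replicate 3 beyond ck follows from the choice. On the log2 scale the fold change was 6.07 (SE 0.79, edgeR adjusted p = 0.0133), and 6.52 (SE 0.72, adjusted p = 0.00026) with replicate 3 left out and the same genes tested. Across the 15 libraries of the other treated groups it ran from 1.83 CPM in Y-L replicate 3 through a median of 7.97 to 30.5 CPM in DS-L replicate 2. Replicate 3 thus lay inside that range, while replicates 1 and 2 lay above it. As deposited FPKM, which allow for gene length, its levels were 90.8, 120.2 and 23.6 in DS+Y-L and 1.18, 1.49 and 1.61 in ck.

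TRINITY_DN21_c0_g1 rose as well, and its ck level was higher. It had 184, 143 and 61.2 CPM in DS+Y-L replicates 1, 2 and 3, and 12.1, 6.47 and 7.40 CPM in ck. Again replicate 3 was the lowest of DS+Y-L and above all of ck, the latter following from the same choice by the gap. The fitted log2 fold change came to 3.90 (SE 0.64, edgeR adjusted p = 0.0398), and 4.24 (SE 0.65, adjusted p = 0.00318) without replicate 3. In the other treated groups it ran from 5.62 CPM to 56.8 CPM with a median of 19.9, so all 3 DS+Y-L libraries exceeded all 15. Its FPKM averaged 71.5 in DS+Y-L, close to the 78.2 FPKM of TRINITY_DN26884_c0_g1 there, but 5.80 in ck against 1.43 for that gene.

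TRINITY_DN651_c1_g1, chosen by the same gap, was lower in all 3 DS+Y-L libraries than in ck. It had 12.4, 25.6 and 9.95 CPM in DS+Y-L replicates 1, 2 and 3 and 128, 153 and 149 CPM in ck. Here replicate 3 was the lowest of the 6 libraries. The fitted log2 difference was -3.16 (SE 0.58, adjusted p = 0.0465), and -2.91 (SE 0.67, adjusted p = 0.0243) without replicate 3. The other treated libraries spread from 7.24 CPM in DS+Y-S replicate 3 to 149 CPM in DS-S replicate 1.

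TRINITY_DN3050_c1_g1 also fell, to 2.64, 1.09 and 2.31 CPM in DS+Y-L, against 10.5, 34.2 and 14.6 CPM in ck. Replicate 3 lay between its 2 mates. The fold change on the log2 scale was -3.29 (SE 0.59, edgeR adjusted p = 0.0398), and -3.41 (SE 0.71, adjusted p = 0.0173) without replicate 3. All 15 libraries of the other treated groups were higher than the 3 of DS+Y-L, from 2.998 CPM to 31.8 CPM. The DS+Y-L values of this gene rest on 38, 20 and 46 counts, the lowest counts among the 4 genes in that group. The 4 genes' calls against ck did not survive every fit: leaving out any 1 ck library ended all 4, with edgeR adjusted p from 0.102 to 0.272. So did a fit with the replicate numbers as a block (edgeR adjusted p 0.0604 to 0.0852) and a fit to the 6 libraries alone (0.0701 to 0.0729). Without DS+Y-L replicate 1, or without its replicate 2, only TRINITY_DN26884_c0_g1 was still called. The other named genes then had edgeR adjusted p from 0.122 to 0.281.

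**Figure D2:**
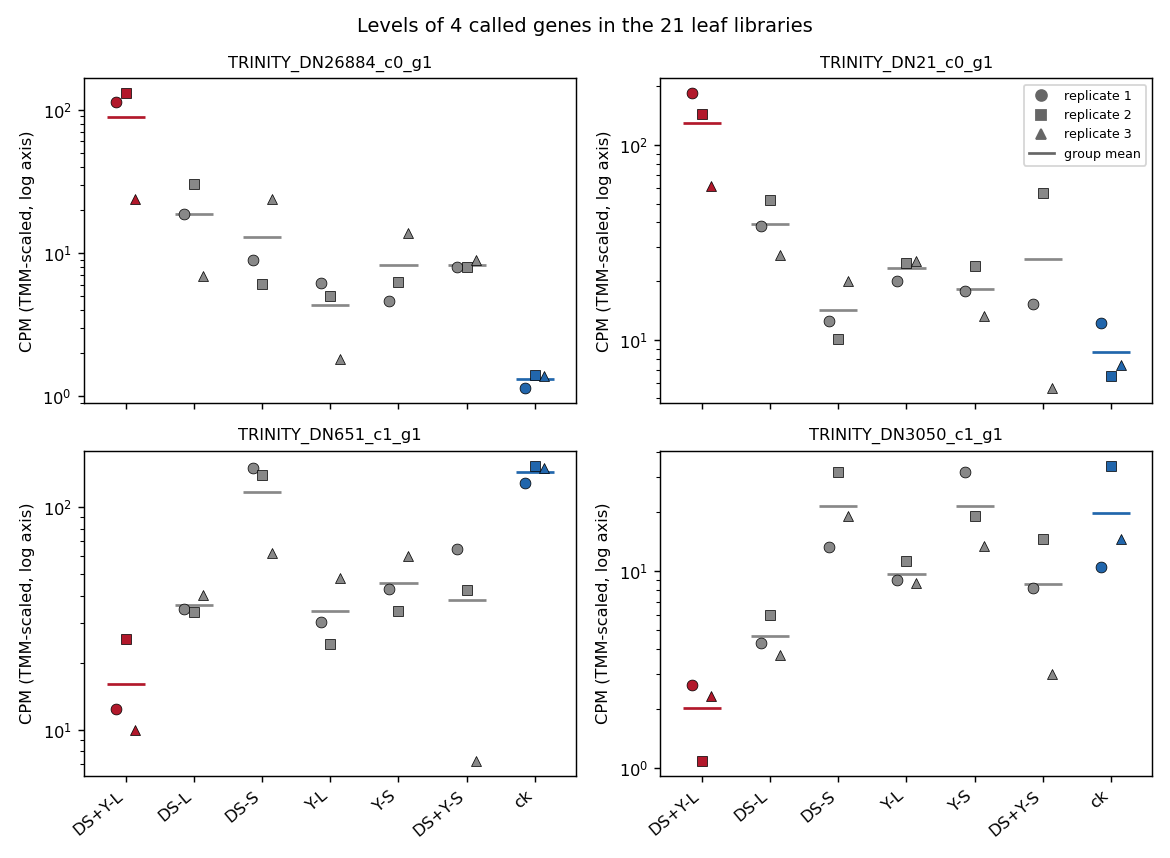
CPM of 4 called genes in all 21 libraries on a log axis, with the 3 replicates of each group as separate symbols and a bar at the group mean. In the upper 2 genes DS+Y-L replicate 3, at 23.6 and 61.2 CPM, sits between its group mates and the ck libraries, and in the lower 2 it sits with its group mates. The genes were chosen for the gap between the nearest DS+Y-L and ck libraries.

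Replicate 3 took part unevenly in the 26 calls. It was the lowest of the 3 DS+Y-L libraries in 17 of the 19 higher genes, the middle one in 1 and the highest in 1. Over all tested genes it was the lowest in 33.5% and the highest in 38.9%. In 8 of the 19 it stood at least 4-fold below the mean of replicates 1 and 2 in log2 CPM, and in 4 it was within 2-fold of them. The most uneven gene, picked out after its values were seen, had 333, 428 and 1.21 CPM in DS+Y-L replicates 1, 2 and 3. Among the 7 lower genes replicate 3 was within 2-fold of the others in 6, and it was the highest of the 3 in 4, the middle one in 2 and the lowest in 1. All 3 libraries entered the choice of these 26 genes, so the order within them is a description.

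One called gene, likewise picked out afterwards, was nearly the same in all 3 DS+Y-L libraries, with the smallest standard error of the 26. It had 86.1, 89.4 and 87.8 CPM in DS+Y-L replicates 1, 2 and 3, and 32.7, 20.9 and 30.8 CPM in ck. The fitted log2 difference of 1.64 (SE 0.24, adjusted p = 0.0303) was the smallest rise called, and it was 1.64 (SE 0.26, adjusted p = 0.00405) without replicate 3.

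**Figure D3:**
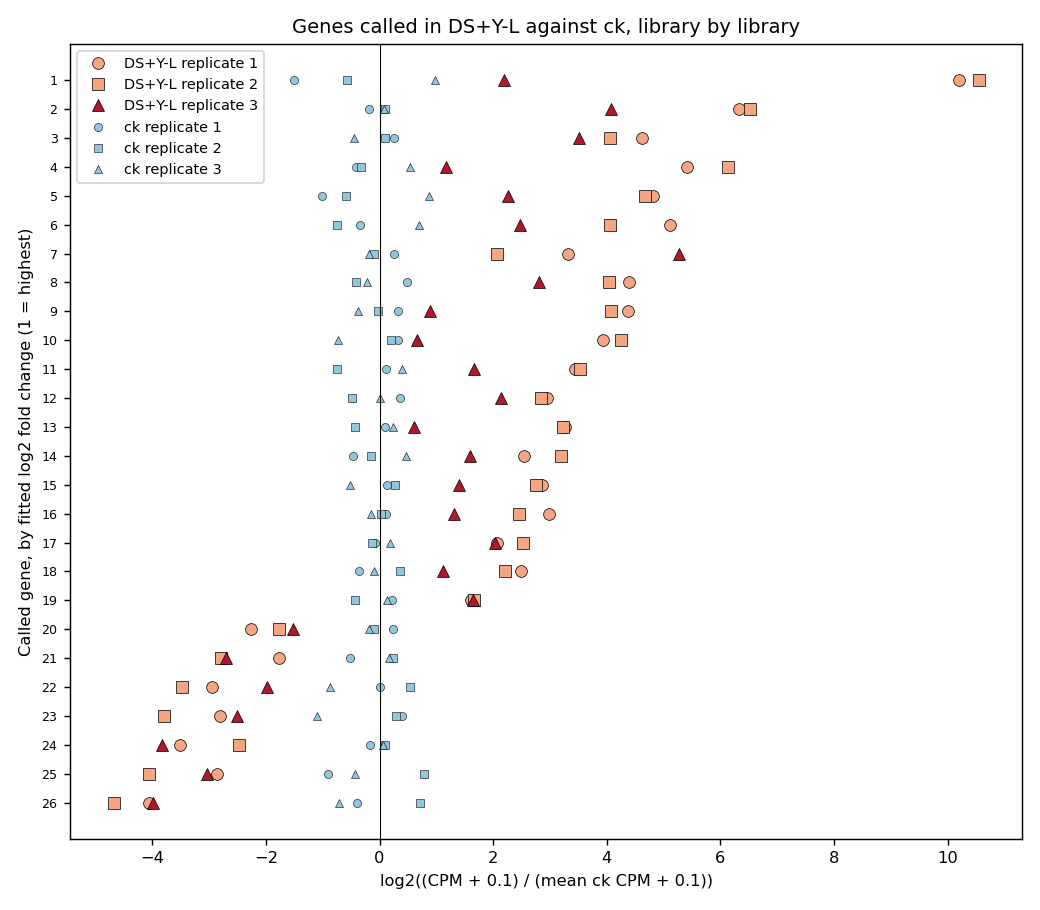
Each of the 26 called genes as a row, with the level in the 6 libraries as log2 of (CPM + 0.1) over (mean ck CPM + 0.1). Triangles of DS+Y-L replicate 3 lie left of replicates 1 and 2 in 17 of the 19 higher genes, and near them in 6 of the 7 lower genes.

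At an unadjusted threshold, differences from ck were more numerous, and their balance of directions changed with replicate 3. With p under 0.05, 3541 genes were higher in DS+Y-L (9.27% of those tested) and 3382 lower (8.85%). The 3 DS+Y-L and the 3 ck libraries did not overlap in 8851 genes (23.2%), with DS+Y-L above ck in 3828 and below it in 5023. The median absolute log2 fold change was 0.66, beside a median standard error of 0.77. The median change was below the median error only in rarer genes. These medians were 0.86 and 1.15 in genes averaging under 1 CPM over all libraries, and 0.64 and 0.71 at 1 to 10 CPM. The order turned at 10 to 100 CPM, with 0.51 and 0.38, and at 100 CPM or more, with 0.65 and 0.44. Log2 fold changes above 1 numbered 5946 and those below -1 numbered 7273. Without replicate 3, 9191 genes (24.1%) had an unadjusted p under 0.05, 4242 higher and 4949 lower, and log2 fold changes above 1 numbered 6722 against 10076 below -1.

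The balance of directions differed with the level of the gene. Among the 10757 genes averaging 10 to 100 CPM over all libraries, 17.1% were higher at an unadjusted p under 0.05 and 11.5% lower. Among the 2121 genes at 100 CPM or more, the shares were 17.7% and 14.1%. The balance turned the other way for rare genes, with 6.94% higher and 9.50% lower at 1 to 10 CPM, and 3.71% and 5.25% under 1 CPM. Without replicate 3 the shares higher and lower were 20.9% and 15.9% at 10 to 100 CPM, 21.3% and 19.9% at 100 CPM or more, 8.29% and 14.2% at 1 to 10 CPM, and 4.04% and 8.27% under 1 CPM. Of the 26 calls, 19 were in the class of 10 to 100 CPM. Fewer genes were also detected on average in DS+Y-L libraries, as given above. Whether that number and the lower levels of rare genes go together was not tested.

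Some genes were counted in one group and had no count in the other. Of all 97500 genes, before the low-count filter, 19 had at least 10 counts in each of the 3 DS+Y-L libraries and none in any ck library. The reverse arrangement held for 60 of the 97500. A total of 0 among the 55856323 ck counts allows a level of up to 0.0537 CPM for such a gene, and 0 among the 54744909 DS+Y-L counts up to 0.0548 CPM, for counting error only. At a minimum of 50 counts the numbers were 2 and 6. When only replicates 1 and 2 were required of DS+Y-L, 83 genes had at least 10 counts in both and none in ck, and 160 the reverse. That requirement is looser, so more genes can meet it.

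With replicate 3 left out and the same 38211 genes tested, the contrast with ck called 1841 genes. Of these, 1004 were higher in replicates 1 and 2 (2.63% of those tested) and 837 lower (2.19%). Replicate 3 had no part in that test, but it entered the low-count filter, which used all 21 libraries. The 1004 higher genes took 15.4% and 17.6% of all counts in replicates 1 and 2, 4.55% in replicate 3, and 2.65%, 2.95% and 3.89% in ck replicates 1, 2 and 3. In the 15 libraries of the other treated groups they took 3.10% to 6.595%, with a median of 4.54%. The 837 lower genes took 0.888% and 0.891% in replicates 1 and 2, 3.51% in replicate 3, 2.47% to 6.81% in the other treated libraries, and 6.77%, 7.24% and 4.23% in ck. On both counts replicate 3 lay among the other treated libraries and far from its mates. The ck and replicate 1 and 2 values were used to choose the genes.

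DS+Y-L was then set against the mean of the 5 other treated groups, in which the ck levels had no part. It called 635 genes in edgeR, 1.66% of those tested, and 576 of them were higher in DS+Y-L (1.51%) while 59 were lower (0.154%). This split in favour of higher genes varied with the method, with 943 higher and 727 lower in DESeq2, 1571 and 559 in limma voom, and 2373 and 1091 when edgeR kept all genes with counts. The median standard error was 0.59 here, against 0.77 in the contrast with ck, and 15 libraries stand on the other side, so the counts of the 2 contrasts cannot be set against each other as sizes of effect. Log2 fold changes of the 576 ran from 0.74 to 11.09 with a median of 2.48, or 2.34 as a ratio of mean CPM, which avoids the fitted values of the 40 genes with no count in 1 or more other groups. Those of the 59 had a median of -2.04. Without DS+Y-S replicate 1 and with the same genes tested, the count was 718, of which 650 were higher. It was 1345 without DS+Y-S replicate 3, 368 without DS-L replicate 1, 404 without DS-S replicate 1 and 403 without Y-S replicate 2. Of the 26 genes called against ck, 20 were called here in the same direction, 15 higher and 5 lower. Both contrasts share the DS+Y-L libraries. The 4 named genes had log2 fold changes of 3.25 (SE 0.41, adjusted p = 0.000455) for TRINITY_DN26884_c0_g1, 2.51 (SE 0.38, adjusted p = 0.00209) for TRINITY_DN21_c0_g1 and -2.48 (SE 0.51, adjusted p = 0.0162) for TRINITY_DN3050_c1_g1. TRINITY_DN651_c1_g1 was at -1.58 (SE 0.47, adjusted p = 0.105), which did not pass.

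**Figure D4:**
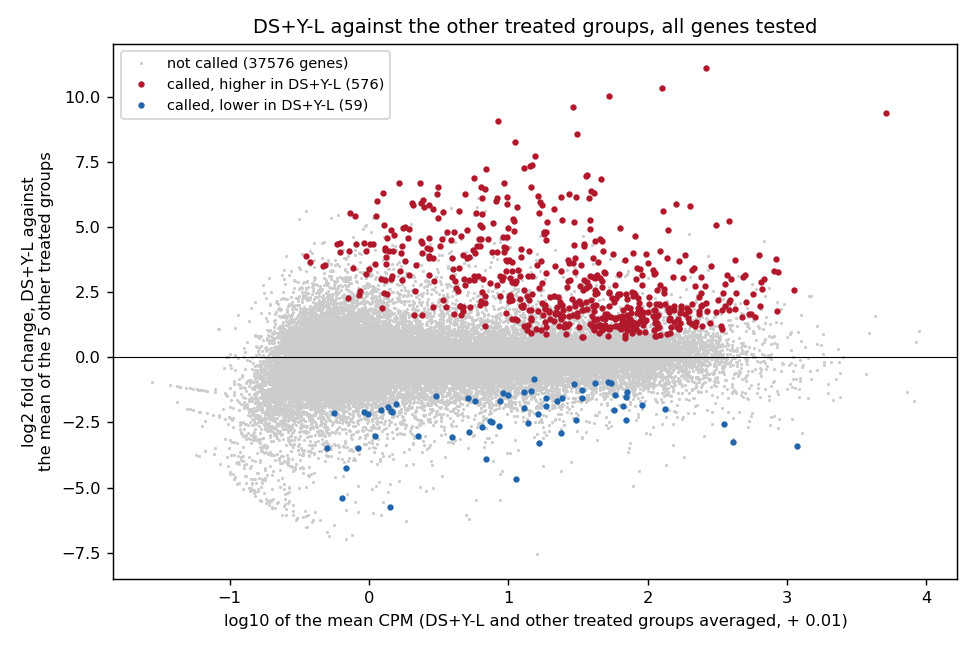
Log2 fold change of DS+Y-L against the mean of the 5 other treated groups (vertical axis) for each of the 38211 tested genes, by log10 of its mean CPM (horizontal axis). The 576 called higher genes reach a log2 fold change of 11.09, and the 59 called lower genes reach -5.75.

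The most abundant of the 576 higher genes was at 15107 and 15419.8 CPM in DS+Y-L replicates 1 and 2, but at 28.9 CPM in replicate 3. In the 15 other treated libraries it ran from 0.577 to 83.7 CPM with a median of 8.60, and in ck it was at 1.07, 2.23 and 18.2 CPM. Its log2 fold change was 9.39 (SE 1.04, adjusted p = 0.000208) against the other treated groups. Against ck it was 10.47 (SE 2.24, adjusted p = 0.0787), which did not pass. The next 2 by abundance showed the same split. One had 1902 and 3521 CPM in replicates 1 and 2 and 305.7 in replicate 3, with 124 to 650.0 CPM in the other treated libraries and 196, 262 and 455 CPM in ck. The other had 2256 and 2281 CPM in replicates 1 and 2 and 59.1 in replicate 3, with 31.8 to 338 CPM in the other treated libraries and 24.7, 15.5 and 59.6 CPM in ck. All 3 genes peaked, outside DS+Y-L, in Y-S replicate 3. These genes were chosen after their values were seen.

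The abundant genes among the 59 lower ones were low in all 3 DS+Y-L libraries. The most abundant had 304, 113 and 185 CPM in DS+Y-L replicates 1, 2 and 3, from 431 to 4676 CPM in the other treated libraries, and 6461, 2599 and 2389.8 CPM in ck. Its log2 fold change was -3.39 (SE 0.84, adjusted p = 0.0463) against the other treated groups and -4.25 (SE 0.95, adjusted p = 0.0792) against ck. The second had 82.0, 66.3 and 62.3 CPM in DS+Y-L, 100.4 to 2944 CPM in the other treated libraries, and 616, 1161 and 1158 CPM in ck. The third had 112, 99.1 and 91.9 CPM in DS+Y-L, 204 to 1097 CPM in the other treated libraries, and 1714.5, 562 and 707 CPM in ck. In all 3 genes the DS+Y-L libraries lay below every other library of the series. Without replicate 3, with the same genes tested, the adjusted p of the 3 was 0.0674, 0.0514 and 0.0434, so the first and second were no longer called. They too were chosen after their values were seen.

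Replicate 3 lay beyond the other treated libraries in 40 of the 59 lower calls and 22 of the 576 higher ones. Among the 576 higher genes, replicates 1 and 2 both lay above all 15 other treated libraries in 474, while replicate 3 did so in 22 and lay inside their range in 537. It was the lowest DS+Y-L library in 558. Among the 59 lower genes, replicates 1 and 2 both lay below all 15 in 55, and replicate 3 in 40. Replicate 3 was the highest DS+Y-L library in 43 of these 59. For comparison, it was the lowest of the 3 in 33.5% of all tested genes and the highest in 38.9%. Over all tested genes replicate 3 lay above all 15 in 3.43% and below all 15 in 2.32%. All 3 DS+Y-L libraries lay above all 15 in 74 genes of those tested (0.194%), 18 of them among the 576, and below all 15 in 111 (0.290%), 39 of them among the 59. All 3 libraries entered this choice as well. A mean of 3 libraries can stay high on 2 very high ones, but it cannot fall far unless the third is low too. The difference between higher and lower calls therefore cannot show whether replicate 3 shared the falls more than the rises.

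Leaving out single DS+Y-L libraries changed the contrast with the other treated groups in the same way as the one with ck. With the same genes tested, 59 genes were called without replicate 1 and 100 without replicate 2, all of them higher. Without replicate 3 there were 2178, with 1486 higher (3.89%) and 692 lower (1.81%). Higher calls shared by the 3 fits numbered 38, with log2 fold changes from 1.08 to 11.09 and a median of 4.06, and TRINITY_DN26884_c0_g1 was one of them. Of the 38, 9 were also called against ck, as were 0.0680% of all tested genes. The 38 were chosen on the DS+Y-L libraries that the contrast with ck also uses.

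The 1486 and 692 genes called without replicate 3 allow replicate 3 to be set beside ck with neither used in the contrast. Both entered the low-count filter, however, and the ck libraries added to the estimate of the spread. The 1486 higher genes took 19.4% and 22.2% of counts in DS+Y-L replicates 1 and 2 and 5.48% in replicate 3. They took 4.12% to 8.76% in the other treated libraries and 3.86%, 4.30% and 5.92% in ck. Replicate 3 was thus inside the range of the ck libraries. The counts were spread over many genes, since the 10 leading genes held 18.8% of the set's counts in replicates 1 and 2 and the 100 leading genes 53.0%. The 692 lower genes took 0.666% and 0.618% in replicates 1 and 2, 3.29% in replicate 3, 2.02% to 5.14% in the other treated libraries and 4.20%, 4.25% and 2.82% in ck. Here too replicate 3 was inside the range of ck.

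**Figure D5:**
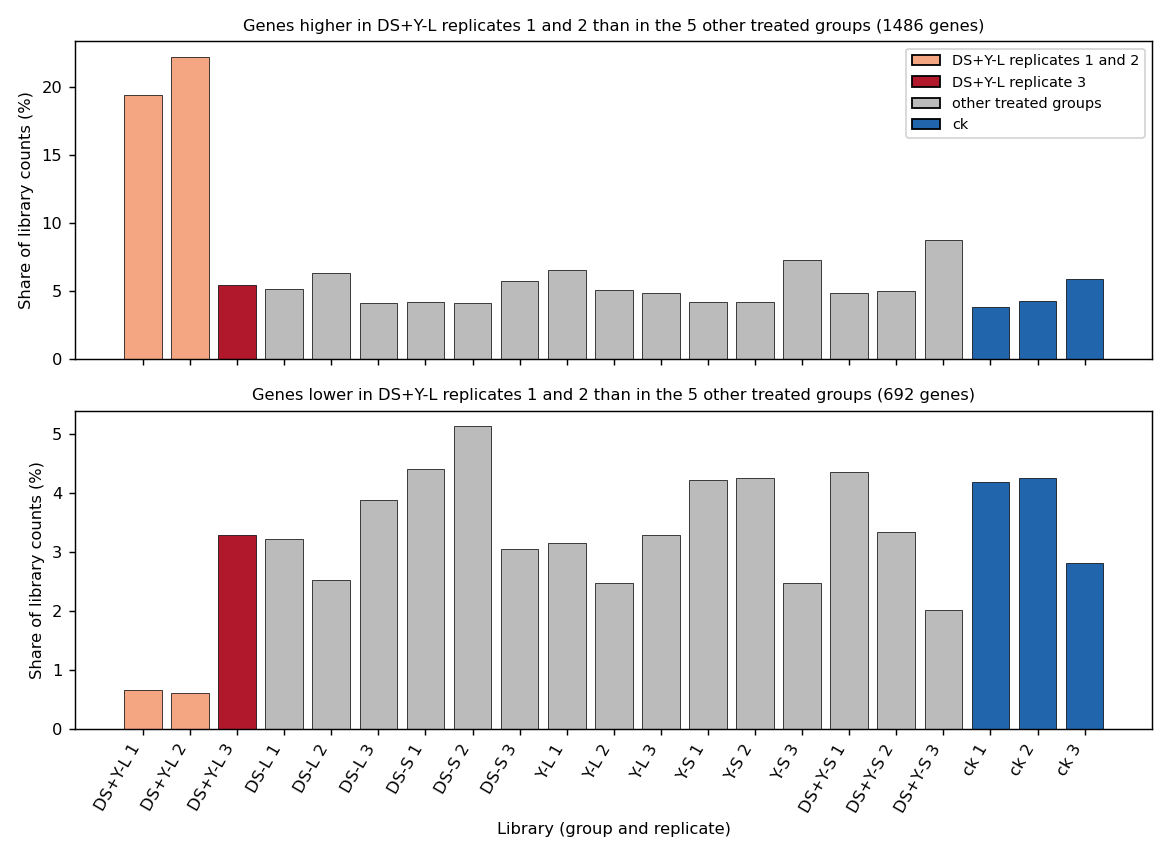
Share of each library's counts (percent) taken by the 1486 genes higher (upper panel) and the 692 genes lower (lower panel) in DS+Y-L replicates 1 and 2 than in the 5 other treated groups. Replicates 1 and 2 stand at 19.4% and 22.2% in the upper panel, and replicate 3 at 5.48% lies among the ck and other treated libraries, of which DS+Y-S replicate 3 is the highest at 8.76%.

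Gene by gene, replicate 3 was close to ck in these sets. Of the 1486 higher genes it was above all 3 ck libraries in 492 (33.1%), inside the range of ck in 738 and below all 3 in 17.2%. Over all tested genes the shares above and below were 24.8% and 26.6%. The median difference of replicate 3 from the mean of ck was 0.16 on the log2 scale, against 2.35 in replicate 1 and 2.28 in replicate 2. Of the 692 lower genes it was below all 3 ck libraries in 38.3% and above them in 20.5%, with a median difference of -0.26, against -2.22 in replicate 1 and -2.49 in replicate 2. The same medians in the 15 other treated libraries ran from -0.25 to 0.89 for the higher set and from -0.84 to 0.31 for the lower set. DS+Y-S replicate 3 gave the extreme of both ranges that lay toward DS+Y-L replicates 1 and 2, with 66.4% of the 1486 genes above all ck libraries.

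The 3 DS+Y-L libraries were the 3 highest of all 21 in 59 genes (0.154% of those tested) and the 3 lowest in 96 (0.251%). The libraries of another treated group were the 3 highest in 6 genes (Y-S) to 67 genes (Y-L), and those of ck in 46. They were the 3 lowest in 2 genes (Y-S) to 51 genes (DS-L), and those of ck in 80. DS+Y-L thus had the second highest number at the upper end and the highest at the lower end, even with replicate 3 included. Of its 59, 6 were called against ck and 16 against the other treated groups, and of its 96, 4 and 39. Over all tested genes, 0.0680% were called against ck and 1.66% against the other treated groups. The 59 and the 96 were chosen on the same values that these tests use, so more frequent calls among them follow from the choice. Replicate 3 was the lowest of the DS+Y-L libraries in 33 of the 59, and the highest of them in 51 of the 96. Over all tested genes it was the lowest in 33.5% and the highest in 38.9%.

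None of the 26, of the 576 or of the 59 shared a Trinity component with another called gene of its set. A component is the cluster of related assembled sequences named by the identifier up to its c number. Genes with the same DN number and different c numbers counted as separate. With so small a share of the tested genes called, few shared components could occur, and whether there were fewer than that share implies was not tested. A component mate among the tested genes was present for 8 of the 26, for 20.5% of the 576 and for 23.7% of the 59, against 24.2% of all tested genes. The length implied by the deposited counts and FPKM had a median of 1325 bases for the 26, 1123 for the 576 and 1145 for the 59, against 860 for all tested genes with such a value (92.4%). Reads can be split between close copies in such an assembly, and whether a single identifier carries all reads of its gene was not tested.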

How the data were processed

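RNA sequencing libraries from leaves were counted per assembled gene, with 97500 Trinity-style identifiers. The authors deposited whole-number counts and, beside each, an FPKM value, per the file headers. Assembler, aligner, counter, filters and gene lengths: not given in the sources used here. Tests on counts used edgeR 4.0.16 under R 4.3.3 (TMM, filterByExpr by group leaving 38211 genes, glmQLFit and glmQLFTest on all 21 libraries and 7 groups, Benjamini-Hochberg adjusted p under 0.05 over all genes tested). The common dispersion was 0.383. Standard errors are the absolute log2 fold change over the square root of F. Log2 CPM used a prior count of 2. FPKM served for levels and for an implied length where a gene had 20 counts or more.

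The libraries and comparisons were chosen with earlier results of these data known. The 4 named genes are the 2 higher and 2 lower called genes of at least 5 CPM with the widest gap between the nearest libraries of both groups. Lists by gene function could not be used, because the files pair no names with the identifiers. Values of single libraries used exact permutation tests. Alternatives were DESeq2 1.42.0, limma 3.58.1 voom with library weights, other scalings, filters and fits, and leaving out libraries. The fit was tested on simulated data. Same-numbered DS+Y-L and ck libraries did not deviate together, so no pairing was used.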

Additional observations from a re-analysis of the deposited data

How the results depend on the processing

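For DS+Y-L against ck, the 26 calls became 28 with DESeq2 size factors, 26 with a robust spread (25 shared) and 26 with a log2 fold minimum of 1. They became 3930 without a low-count filter, 2795 in DESeq2, 2946 in limma voom with library weights and 45 without the library DS+Y-S replicate 1, each with all 26. A fit to the 6 libraries alone called 0 (smallest adjusted p = 0.0701, 5889 genes at an unadjusted p under 0.05). Replicate numbers as a block also gave 0 (smallest adjusted p = 0.0604, 6601 genes unadjusted). Deviations from the group means correlated at 0.03, -0.05 and -0.31 over genes for numbers 1, 2 and 3, so the numbers do not pair these libraries. Leaving out 1 library gave 0 to 1841 calls: 0 without any 1 ck library, 1 without DS+Y-L replicate 1, 2 without replicate 2, and 1735 or 1841 without replicate 3, the larger with the genes of the full fit kept. In the fits at 0 without a ck library, 4385 to 7352 genes had an unadjusted p under 0.05.

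For DS+Y-L against the 5 other treated groups, the 635 calls became 691 with DESeq2 size factors, 605 with a robust spread, 824 without DS+Y-S replicate 1 and the filter applied again, 615 with a fold minimum and 449 with the replicate block. They became 3464 without a filter, 1670 in DESeq2 (943 higher and 727 lower, a more even split than 576 and 59) and 2130 in limma voom. Leaving out 1 DS+Y-L library gave 59 to 2265 calls: 62 without replicate 1 (59 with the genes of the full fit kept), 96 (100 kept) without replicate 2 and 2265 (2178 kept) without replicate 3. Among the 15 libraries of the other groups, left out in turn after the data were seen, the calls rose to 1345 when DS+Y-S replicate 3 was dropped, came to 403 for Y-S replicate 2, to 368 for DS-L replicate 1 and to 404 for DS-S replicate 1, and stayed within 1.5 times of 635 otherwise. The cause of these moves was not tested.

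The 4 named genes kept their direction in all 80 fits of alternatives and were past the threshold in 36. Their log2 fold changes ran from 5.69 to 6.52 for TRINITY_DN26884_c0_g1, 3.55 to 4.24 for TRINITY_DN21_c0_g1, -3.68 to -2.91 for TRINITY_DN651_c1_g1 and -3.60 to -2.64 for TRINITY_DN3050_c1_g1. The differences in genes detected and in the share of the 100 most abundant genes kept their sign in every alternative run but moved in size, from -7229 to -2551 genes and from -4.94 to -0.785 percentage points, and 3 libraries a group cannot bring either below an exact p of 0.1.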
